A study of Mus musculus with 59 samples.

Results

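Arginine metabolism was followed through 9 genes: the arginases Arg1 and Arg2, the urea cycle genes Cps1, Otc, Ass1 and Asl, the inducible nitric oxide synthase Nos2, the ornithine decarboxylase Odc1 and the cationic amino acid transporter Slc7a2. The set was chosen by the measured log2 ratios of Arg1, which were higher in the forestomach of mice given the highest dose than in vehicle mice, and its urea cycle partners were added for comparison. All probes whose RefSeq accession belongs to one of these symbols were used, which gave 13 of the 55681 probes on the array and 9 of its 37163 genes or transcripts. Odc1 had 3 probes, Ass1 and Otc had 2 each, and the other 6 genes had 1 each.

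Arginase splits arginine into urea and ornithine. In liver, Cps1 and Otc in mitochondria and Ass1, Asl and Arg1 in the cytosol form the urea cycle, which disposes of ammonia. Outside liver, Ass1 and Asl rebuild arginine from citrulline, the by-product of nitric oxide synthases, while arginases and nitric oxide synthases draw on the same arginine and Odc1 turns ornithine into polyamines. Arg2 is the mitochondrial arginase of tissues other than liver.

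The samples were lung, liver and forestomach of male Muta™Mouse of 16 weeks, a transgenic strain built for mutation assays, taken 72 hours after the last of 28 daily gavages. Vehicle mice were gavaged with olive oil alone. Treated mice had benzo(b)fluoranthene (BbF) dissolved in it, at 25 (low), 50 (medium) or 100 (high) mg/kg-bw/day. The labels disagree on the compound, since titles and treatment protocol give BbF while a further label and the design description give benz(a)anthracene. The doses above are those the study states for BbF, and it states others for benz(a)anthracene. Mice 1 to 5 were vehicle, 6 to 10 low, 11 to 15 medium and 16 to 20 high, and each number is the same animal in the 3 tissues. Each of the 12 groups held 5 arrays except low-dose lung with 4, 59 arrays in all. Every value below is a log2 ratio of the Cy5 signal of the tissue RNA to the Cy3 signal of a common reference RNA made from cell lines, so a value of 1 means that the tissue was 2-fold above the reference. Such a ratio can be compared between samples for 1 probe, not between probes. Only a tissue average is measured, so a higher share of the cells that express a gene and more RNA per cell cannot be told apart.

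The tissue labels were checked against lists of marker genes, each summarized per array as a mean log2 ratio. The list of hepatocyte genes lay between 5.58 and 6.68 in liver and at 4.44 or less elsewhere. Alveolar and airway epithelium lay between 5.79 and 6.45 in lung and at 1.12 or less elsewhere. Squamous epithelium lay between 5.10 and 5.66 in forestomach. Outside forestomach it reached 4.07, in the lung of low-dose mouse 6. Genes of the glandular stomach varied from 0.36 to 6.52 between forestomach samples, and those of vehicle mice (1.20 to 6.05) and high-dose mice (0.78 to 5.83) spanned similar ranges. The forestomach of medium-dose mouse 12 had the highest hepatocyte score of that tissue, 4.44. Its title and source name give the forestomach, but the tissue field that the other samples carry is missing from its labels. The third liver slide, which held 8 of the 20 liver samples (1 vehicle, 2 low, 2 medium and 3 high), had 10.8 to 12.9% of probes well above background against 37.1 to 46.2% on the other liver slides. Forestomach arrays had 39.6 to 52.0%. Lung arrays had 44.8 to 52.7%, apart from that of medium-dose mouse 13 with 68.8%.

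Vehicle mice were compared first, since the members differed far more between tissues than between doses. In the plot of vehicle mice by tissue, the urea cycle genes stood highest in liver. Cps1, the enzyme that brings ammonia into the cycle, had a mean log2 ratio of 7.01 ± 1.12 (SD, n = 5) in liver, with 7.54, 7.58, 7.47, 7.43 and 5.00 in vehicle mice 1 to 5. It was not well above background on any vehicle array of the other tissues, where its means were -0.02 ± 0.10 in lung and 0.20 ± 0.14 in forestomach. The log2 ratio of Cps1 was 7.03 ± 0.37 (limma estimate ± SE) higher in liver than in lung (adjusted p = 3.3e-10) and 6.81 ± 0.37 higher than in forestomach (adjusted p = 5.6e-10), with all 5 livers above every sample of the other tissues.

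Otc, which joins carbamoyl phosphate to ornithine, showed the same picture. Its brighter probe read 8.15, 8.58, 8.14, 8.16 and 4.72 in the vehicle livers, and on this probe Otc was at least 121.6-fold higher there than in lung (adjusted p = 1.3e-08) and at least 135.8-fold higher than in forestomach (adjusted p = 1.4e-08). Such a bound compares Cy5 signals, normalized between arrays, with the lowest signal counted as well above background on each array of the dimmer group. It leaves out Cy3, is open to dye bias and is given only where it is below the fold of the log2 ratios. On the dimmer Otc probe the log2 ratio was 5.49 ± 0.56 higher in liver than in lung and 5.71 ± 0.56 higher than in forestomach. In both genes the low value is that of mouse 5, the only vehicle liver on the third slide.

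**Figure D1:**
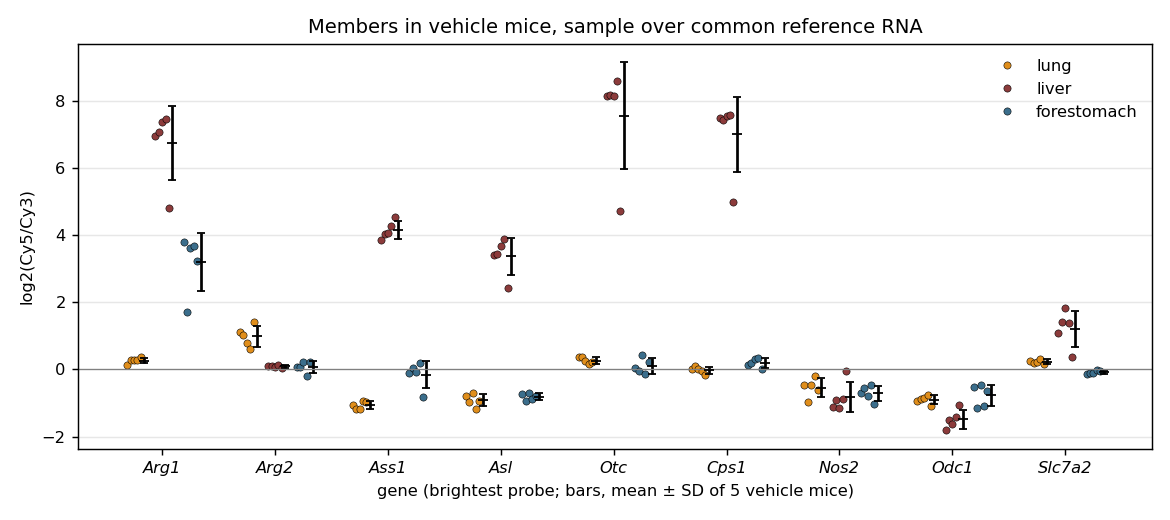
Log2 ratio of tissue RNA to reference RNA (y axis) for the 9 genes (x axis) in 5 vehicle mice per tissue, each point 1 mouse and each bar the mean ± SD, brightest probe of each gene. The urea cycle genes Cps1, Otc, Ass1, Asl and Arg1 are highest in liver, where 1 mouse (the vehicle liver on the third slide) lies well below the others for 4 of the 5.

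Ass1 and Asl, which make argininosuccinate and cleave it to arginine, were measured on every vehicle array of all 3 tissues. Ass1 had a mean of 4.15 ± 0.27 in liver, -0.16 ± 0.40 in forestomach and -1.07 ± 0.11 in lung. Asl had 3.37 ± 0.56 in liver, -0.81 ± 0.11 in forestomach and -0.92 ± 0.18 in lung. Liver exceeded lung by 5.22 ± 0.17 for Ass1 (adjusted p = 1.2e-12) and by 4.29 ± 0.20 for Asl (adjusted p = 7.5e-11). All 5 livers lay above all 5 lungs for both genes. Ass1 was lower in lung than in forestomach by 0.91 ± 0.17 on the brighter probe (limma log2 change -0.91, adjusted p = 0.00043), a call lost with each array centred on its median in place of loess (-1.04, adjusted p = 0.57). Asl differed by -0.11 ± 0.20 (adjusted p = 0.77).

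Arg1, the cytosolic arginase that ends the cycle, was called different between every pair of tissues. The vehicle livers had 7.36, 7.47, 6.96, 7.08 and 4.80 in mice 1 to 5, and the forestomachs of the same mice had 3.62, 3.68, 3.23, 3.79 and 1.71. In lung the values were 0.13, 0.27, 0.27, 0.29 and 0.36, and the probe was well above background on 2 of these 5 arrays. The order liver, forestomach, lung held without overlap between the tissues. Liver exceeded forestomach by 3.53 ± 0.46 (adjusted p = 1.4e-05) and lung by 6.47 ± 0.46 (adjusted p = 1.0e-08), and forestomach exceeded lung by 2.94 on the log2 scale (lung minus forestomach -2.94 ± 0.46, limma adjusted p = 9.2e-05). With each array centred on its median in place of loess, liver over forestomach for Arg1 was 2.40 with an adjusted p of 0.12, and lung minus forestomach was -2.12 with an adjusted p of 0.20.

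Arg2, the other arginase, was highest where Arg1 was lowest. It read 1.11, 1.01, 0.78, 0.61 and 1.41 in the vehicle lungs, where it was well above background on all 5 arrays. Neither liver nor forestomach had a single array, at any dose, with Arg2 well above background. Lung was at least 1.5-fold above liver (adjusted p = 2.2e-05) and at least 1.56-fold above forestomach (adjusted p = 2.7e-05).

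Slc7a2, a low-affinity arginine transporter of hepatocytes, was higher in liver (1.21 ± 0.54) than in lung (0.23 ± 0.06), a difference of 0.98 ± 0.18 (adjusted p = 0.00040). Its log2 ratio was 1.29 ± 0.18 higher in liver than in forestomach (adjusted p = 3.5e-05), where no vehicle array had it well above background. The Nos2 means were -0.54 ± 0.29 (lung), -0.82 ± 0.45 (liver) and -0.71 ± 0.23 (forestomach), and Nos2 was called in none of the 3 comparisons. The probes of Odc1 disagreed. The brightest put liver below forestomach by 0.71 (log2 change -0.71 ± 0.15, adjusted p = 0.0016), while the others gave -0.20 ± 0.20 and 0.02 ± 0.14, both with adjusted p above the threshold (0.52 and 0.94).

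A gene was called when the adjusted p (Benjamini-Hochberg over all 55681 probes) was 0.05 or less and the change was at least 1.5-fold on any of its probes. By that rule 7 of the 9 members were called between vehicle liver and lung (6 higher in liver, and Arg2 lower), where 30.5% of all genes were called (12.7% higher, 18% lower). Between liver and forestomach the count was 7 (6 higher, and Odc1 lower) with 25.5% of all genes called (10.5% higher, 15.1% lower), and between lung and forestomach it was 3 (Arg2 higher in lung, Arg1 and Ass1 lower) with 24.2% (12.6% higher, 11.7% lower). How many of all genes separated the vehicle tissues without overlap, as Cps1, Ass1, Asl and Arg1 did between liver and lung, was not counted. Each slide held 1 tissue only, so slide and tissue cannot be told apart in these comparisons.

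Of 33 other genes of arginine, polyamine, creatine and nitric oxide metabolism, 31 were on the array. Between vehicle liver and lung 14 of them were called higher in liver and 12 lower, beside 12.7% and 18% of all genes. The higher ones held Nags, which makes the activator of Cps1 (3.88 ± 0.46, adjusted p = 4.1e-06), the mitochondrial carriers Slc25a15 (2.67 ± 0.38, adjusted p = 2.9e-05) and Slc25a13 (4.61 ± 0.21, adjusted p = 7.3e-11) that move ornithine and aspartate, and Gamt of creatine synthesis (4.24 ± 0.19, adjusted p = 4.3e-11). The lower ones held Ddah2 (-3.12 ± 0.30, adjusted p = 4.1e-07) and the arginine transporter Slc7a1 (-1.29 ± 0.34, adjusted p = 0.0067). Between liver and forestomach 13 were higher and 6 lower, beside 10.5% and 15.1% of all genes. Between lung and forestomach 11 were higher in lung and 6 lower, beside 12.6% and 11.7%.

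In the forestomach, the mean of Arg1 was higher in each dose group than in the one below it. The step from vehicle to low dose rested on vehicle mouse 5. The forestomach is the squamous part of the rodent stomach, which the gavaged compound meets first. The comparison of high dose with vehicle chose the gene, so its values are a description and carry no test. The high-dose mice 16 to 20 read 4.44, 5.16, 5.24, 4.87 and 5.30, against 3.62, 3.68, 3.23, 3.79 and 1.71 in vehicle mice 1 to 5. All 5 high-dose values lay above all 5 vehicle values, as did 1.31% of all genes. The fitted difference was 1.80 ± 0.34, or 3.47-fold. Within the 3 forestomach slides it was 2.30, 1.15 and 2.07. The first and second slide held 2 high-dose and 2 vehicle mice each, and the third held 1 of each. Vehicle mouse 5 was on the first slide. The fitted difference was 1.42 without vehicle mouse 5 and between 1.53 and 1.81 with other normalizations. Arg1 is absent from the study's own list of genes changed in BbF forestomach, which came from another test of these arrays. The unadjusted Cy5 signal was 167 to 575 in vehicle mice and 1239 to 2392 in high-dose mice. The Cy3 signal of the reference was dim on these 20 arrays, from 47.0 to 102.5, so the denominator of the ratio lay near the bottom of the scale.

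**Figure D2:**
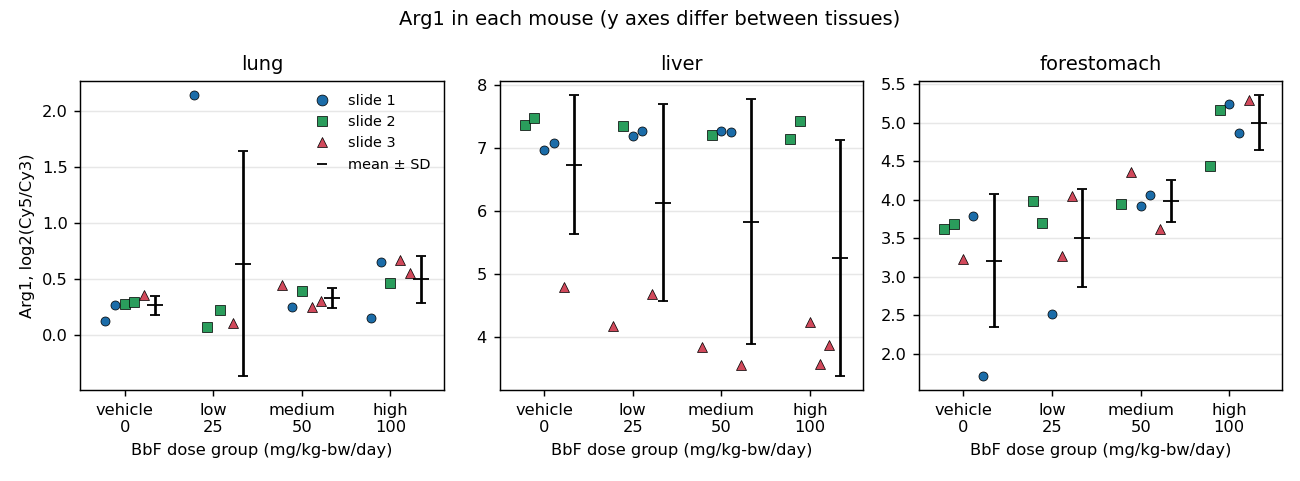
Log2 ratio of Arg1 (y axis, different ranges) by dose group (x axis, mg/kg-bw/day) in each tissue, with 1 point per mouse, marked by slide, and the mean ± SD. In forestomach the 5 high-dose mice lie between 4.44 and 5.30 and all vehicle mice at 3.79 or less, in liver the values split by slide, and in lung 1 low-dose mouse lies at 2.14.

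The lower doses of the forestomach use the same vehicle mice as the comparison above. Low-dose mice 6 to 10 read 3.99, 3.7, 2.52, 3.26 and 4.05, and medium-dose mice 11 to 15 read 3.94, 4.37, 3.92, 4.07 and 3.62. Of the low-dose values 3 fell within the vehicle range and 2 lay above it. The medium-dose values reached above it in 4 of 5 mice, and every medium-dose value lay below every high-dose value. The differences from vehicle were 0.30 ± 0.34 (adjusted p = 0.98) and 0.78 ± 0.34 (adjusted p = 0.86), and neither was called. Without vehicle mouse 5 they were -0.078 at low and 0.40 at medium dose. No member was called at either dose, and no gene on the array was (0% called at low and at medium dose). In order of their means the forestomach groups were high (5.00 ± 0.36), medium (3.98 ± 0.27), low (3.50 ± 0.63) and vehicle (3.21 ± 0.86). High and medium were the only neighbours whose mice did not overlap. The share of all genes that separated high from medium dose was not counted.

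The other members differed little between high-dose and vehicle forestomach. Their differences lay between -0.24 (Otc) and 0.27 (Odc1), again as a description. Asl differed by 0.16, Ass1 by 0.19 and Nos2 by -0.04. No vehicle or high-dose forestomach had Otc, Cps1 or Arg2 well above background. The 10 forestomach values of Ass1 in vehicle and high-dose mice overlapped, from -0.83 to 0.19 and from -0.55 to 0.31. Over all genes 0.102% were called in this comparison (0.0942% higher). In medium-dose mouse 12, Otc read 2.59, Cps1 2.06 and Ass1 0.72, the highest forestomach values of each, in the sample with the hepatocyte score of 4.44. The other medium-dose forestomachs read at most 0.53 for Otc and 0.25 for Cps1. The part of liver RNA in these values was not tested.

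Arginase is also known from alternatively activated macrophages, and lists of leukocyte markers were set beside Arg1. Each list is given as the mean log2 ratio of its genes. That of 7 macrophage genes lay between 0.08 and 0.75 in vehicle and between 0.23 and 0.95 in high-dose forestomach. That of 6 genes of alternatively activated macrophages lay between -0.02 and 0.41 and between 0.02 and 0.74, with all 6 well above background on every forestomach array. Squamous epithelium was at 5.36 to 5.53 in vehicle and 5.12 to 5.44 in high-dose mice. The ranges of both groups overlapped for every one of these lists, and the median change of the list genes was 0.26, 0.24 and -0.12. The part of these cells in the Arg1 values was not tested.

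Over the 20 forestomach arrays, the genes whose log2 ratios followed Arg1 most closely, among 11428 named genes well above background on all 20, were Fam162a (Pearson r = 0.86), Stfa2 (0.85), Stfa2l1 (0.83), Slc2a1 (0.80) and Pgbd5 (0.79). These correlations describe 20 arrays that share 4 dose groups and 3 slides. The arrays include the vehicle and high-dose ones by which Arg1 was chosen. A difference between these groups in the genes closest to Arg1 thus follows from the ranking and carries no test. Stfa2 and Stfa2l1 are stefins, cysteine protease inhibitors with near-identical copies in the mouse genome whose probes may detect each other. Stfa2 ran from 1.81 to 3.74 in vehicle and from 4.39 to 5.19 in high-dose mice. Slc2a1, the glucose transporter GLUT1, ran from -2.02 to -1.38 and from -1.19 to -0.98.

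In the liver no member was called at any dose. Background counts there were small: 0% of all genes at low and medium dose, 0.00538% at high dose and 0.0135% for a trend over dose. The plot of urea cycle genes in the liver shows where their spread lay. On the first and second slide Arg1 ran from 6.96 to 7.47 over 12 livers of all 4 groups, and on the third slide from 3.56 to 4.80 over 8. The unadjusted Cy5 signal of Arg1 was 13120 to 23260 in the former and 273 to 506.5 in the latter. Otc ran from 8.02 to 8.58 and from 3.42 to 4.83, Cps1 from 7.39 to 7.85 and from 3.06 to 5.00, and Asl from 3.18 to 3.89 and from 1.19 to 2.43. The log2 ratio of Ass1 after loess normalization was the exception among the urea cycle genes. It ran from 3.85 to 4.27 on the first and second slide and from 4.17 to 4.60 on the third slide. The unadjusted Cy5 signal of Ass1 was still lower on the third slide, 1806 to 2887 against 70070 to 117600. Its Cy3 signal was 9255 to 11550 against 9085 to 11890.

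**Figure D3:**
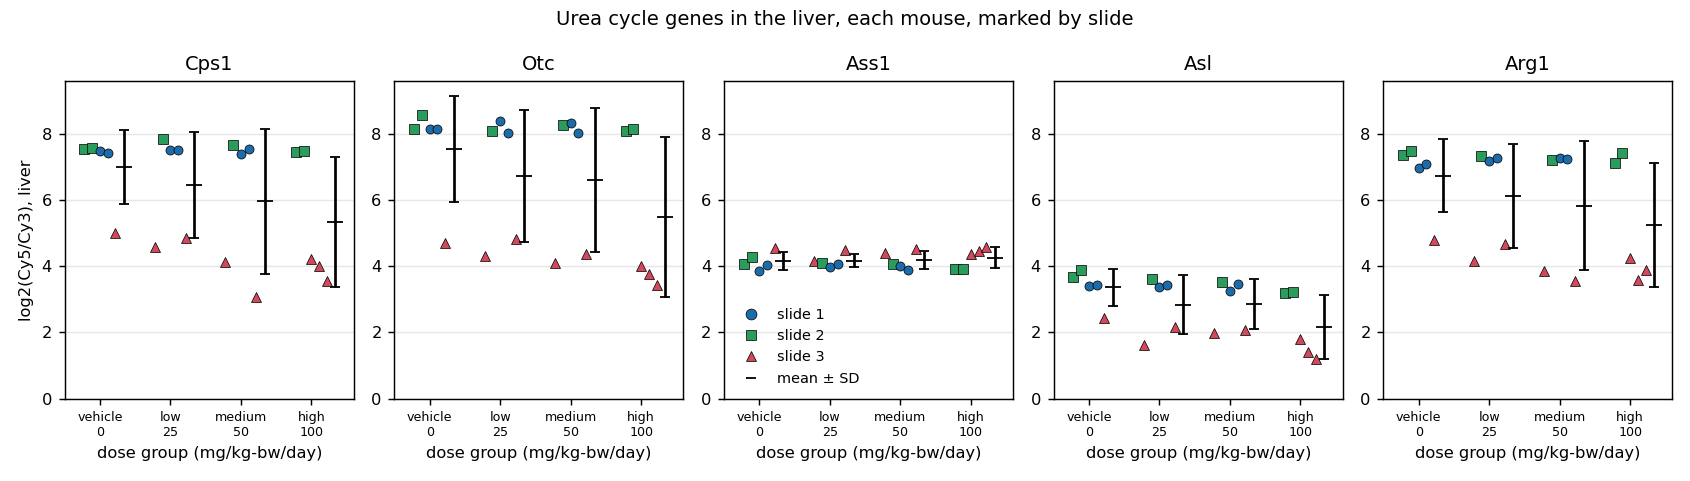
Log2 ratio (y axis) of 5 urea cycle genes in liver by dose group (x axis, mg/kg-bw/day), 1 point per mouse, marked by slide, with the mean ± SD of the 5 mice. Cps1, Otc, Asl and Arg1 fall into a high set (first and second slide) and a low set (the third slide) in every dose group, while Ass1 stays between 3.85 and 4.60.

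The third slide held 3 high-dose livers but 1 vehicle liver, and the fitted differences for the high dose moved with this split. They were -1.48 ± 0.98 for Arg1 (adjusted p = 0.70), -2.06 ± 1.23 for Otc (0.69), -1.67 ± 1.05 for Cps1 (0.70) and -1.21 ± 0.48 for Asl (0.60). Without the third slide they became 0.06 ± 0.13, -0.14 ± 0.14, -0.05 ± 0.11 and -0.40 ± 0.13, and none was called. Ass1 differed by 0.11 ± 0.16 with all slides (adjusted p = 0.82) and by -0.13 ± 0.11 without the third slide.

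Asl was the 1 member that passed the test in high-dose liver with slide as a block. High-dose mice 16 to 20 read 3.18, 3.22, 1.80, 1.41 and 1.19, and vehicle mice 1 to 5 read 3.67, 3.89, 3.41, 3.44 and 2.43. Within the second slide the 2 high-dose livers were 0.58 lower than the 2 vehicle livers (difference -0.58), and within the third slide 3 high-dose livers were 0.97 lower than vehicle mouse 5 (difference -0.97). With slide as a block the difference was -0.67 ± 0.12 and Asl passed the limma test (adjusted p = 0.0093), where 0.342% of all genes were called. Without the third slide it was -0.40 with an adjusted p of 0.17, where 1.04% were called.

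Of the remaining members, Slc7a2 ran from 1.07 to 2.90 on the first and second slide and from -0.01 to 0.69 on the third slide, where it was never well above background. Nos2 and Odc1 showed no called difference at any dose. Nos2 was well above background on 5 of 12 livers of the first and second slide and on 0 of 8 of the third. Its liver values thus lay largely near the floor.

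In the lung, Ass1 rose. Its brighter probe read -1.05, -1.18, -1.18, -0.94 and -0.98 in vehicle mice 1 to 5 and -0.71, -0.33, -0.75, -0.17 and -0.12 in high-dose mice 16 to 20. Every high-dose lung lay above every vehicle lung, which 4.26% of all genes did. The dimmer probe read -1.46, -1.21, -1.36, -1.06 and -1.44 in vehicle and -0.54, -0.29, -0.75, -0.15 and -0.07 in high-dose mice, again without overlap. The change at the high dose was 0.65 ± 0.13 (1.57-fold, adjusted p = 0.0031) on the brighter and 0.95 ± 0.12 (1.93-fold, adjusted p = 6.3e-05) on the dimmer probe. Ass1 was the 1 member of 9 called, with 1.93% of all genes called at this dose (1.36% higher).

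**Figure D4:**
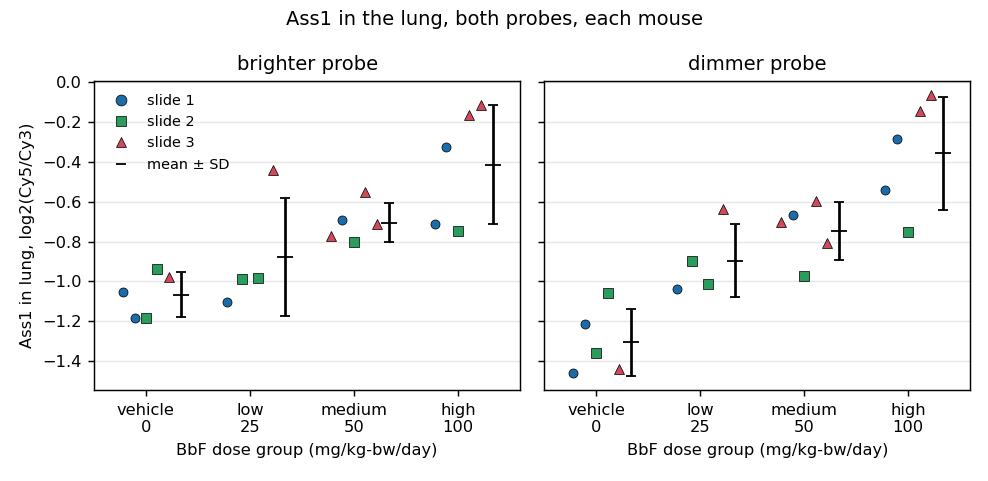
Log2 ratio of both Ass1 probes in lung (y axis) by dose group (x axis, mg/kg-bw/day), 1 point per mouse, marked by slide, with the mean ± SD. On both probes all 5 high-dose mice lie above all 5 vehicle mice, and the group means are higher at each step of the dose.

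Low and medium doses lay between these ends. The 4 low-dose lungs read -1.10, -0.99, -0.98 and -0.44 on the brighter probe, and the 5 medium-dose lungs read -0.77, -0.69, -0.80, -0.55 and -0.71. All medium-dose values were above all vehicle values, while 3 of the 4 low-dose values fell within the vehicle range. How many of all genes separated medium dose from vehicle in this way was not counted. The medium-dose difference was 0.36 ± 0.13 (adjusted p = 0.17) on the brighter probe and 0.56 ± 0.12 (adjusted p = 0.019, 1.47-fold and so under the minimum of 1.5) on the dimmer. No member was called at low or medium dose, where 0.449% and 0.635% of all genes were. A trend over dose was called for Ass1 alone of the members, at 0.65 ± 0.12 per 100 mg/kg-bw/day on the brighter probe (adjusted p = 0.0016) and 0.90 ± 0.12 on the dimmer (adjusted p = 6.0e-05), with 1.64% of all genes called (1.16% higher). Within the 3 lung slides the high-dose difference was 0.60, 0.31 and 0.83 on the brighter and 0.92, 0.46 and 1.33 on the dimmer probe. These slides held 2, 1 and 2 high-dose lungs and 2, 2 and 1 vehicle lungs.

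A pair of limits touches the brighter probe, whose change is close to 1.5-fold. Without high-dose mouse 20 it was 0.58, under the fold minimum, and with slide as a block the trend was 0.58 as well, both with adjusted p below 0.05. The dimmer probe kept Ass1 called in each of these fits.

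Of the 9 members, Ass1, Odc1 and Otc had a promoter in the RefSeq table (GRCm38.p6), and those of Ass1, which rose in lung, and of Otc, a gene well above background in liver alone among vehicle mice, are shown as examples of 2 promoters of opposite composition. Each covers 250 bases before and 50 bases from the start of transcription on the plus strand. Ass1 is at chr2:31470020-31470319 and Otc at chrX:10252055-10252354. Capitals mark GCGTG, the core that the aryl hydrocarbon receptor binds, or its reverse complement.
Ass1: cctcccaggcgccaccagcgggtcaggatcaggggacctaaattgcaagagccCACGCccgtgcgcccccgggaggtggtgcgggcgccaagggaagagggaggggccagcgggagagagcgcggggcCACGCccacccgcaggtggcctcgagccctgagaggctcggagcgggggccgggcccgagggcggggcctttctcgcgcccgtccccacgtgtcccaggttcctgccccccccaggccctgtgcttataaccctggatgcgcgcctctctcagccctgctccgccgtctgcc
Otc: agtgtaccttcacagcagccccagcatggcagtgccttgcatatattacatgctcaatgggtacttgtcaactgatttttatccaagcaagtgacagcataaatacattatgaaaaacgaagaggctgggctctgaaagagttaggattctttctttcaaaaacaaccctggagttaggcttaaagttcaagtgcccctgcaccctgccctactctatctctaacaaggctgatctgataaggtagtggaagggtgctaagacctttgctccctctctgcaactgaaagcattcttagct

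The Ass1 window held 2 matches, both on the minus strand and starting at positions 54 and 129, and the Otc window held none. The window of Odc1, which was not called in lung with loess normalization, held 3, at positions 72, 94 and 150. Of all 32851 promoters listed, 32.4% held at least 1 match on either strand, so a match is common and is given as a description of the letters. The Ass1 window was 74.0% G or C with 27 CG dinucleotides, the Odc1 window 78.0% with 42 and the Otc window 44.3% with 1, against medians of 52.7% and 7 over all promoters.

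The other members changed less in lung. Nos2, which makes nitric oxide in activated macrophages and epithelium, read -0.46, -0.98, -0.48, -0.19 and -0.60 in vehicle and -0.59, -1.30, -0.89, -0.98 and -1.14 in high-dose lungs. Its difference of -0.44 ± 0.12 had an adjusted p of 0.039 but was under 1.5-fold, so Nos2 was not called, and 2 of 5 high-dose lungs lay below all vehicle lungs. Arg2 read 1.11, 1.01, 0.78, 0.61 and 1.41 in vehicle and 1.05, 1.78, 1.64, 1.48 and 1.34 in high-dose lungs, a difference of 0.48 ± 0.18 (adjusted p = 0.13). Odc1 differed by 0.21 ± 0.10 on its brightest probe (adjusted p = 0.28) and Asl by -0.01 ± 0.09 (adjusted p = 0.97). Otc was well above background on no lung array and Cps1 on 1.

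Arg1 was called at no dose in lung. Its differences from vehicle were 0.37 ± 0.27 at low, 0.06 ± 0.26 at medium and 0.23 ± 0.26 at high dose, with adjusted p between 0.71 and 0.95. The low-dose value rested on mouse 6, whose lung read 2.14 against 0.07 to 0.23 in the other 3 low-dose lungs. Without it the low-dose difference was -0.13 ± 0.10. The dose groups shared an estimate of the spread, so mouse 6 also widened the SE at medium and high dose. That sample also had a squamous epithelium score of 4.07, with all 6 marker genes well above background (Krt4 at 5.73 and Lor at 6.35), and a muscle score of 3.25, the highest of the lung arrays for both lists. The part of other tissue in its Arg1 value was not tested.

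**Figure D5:**
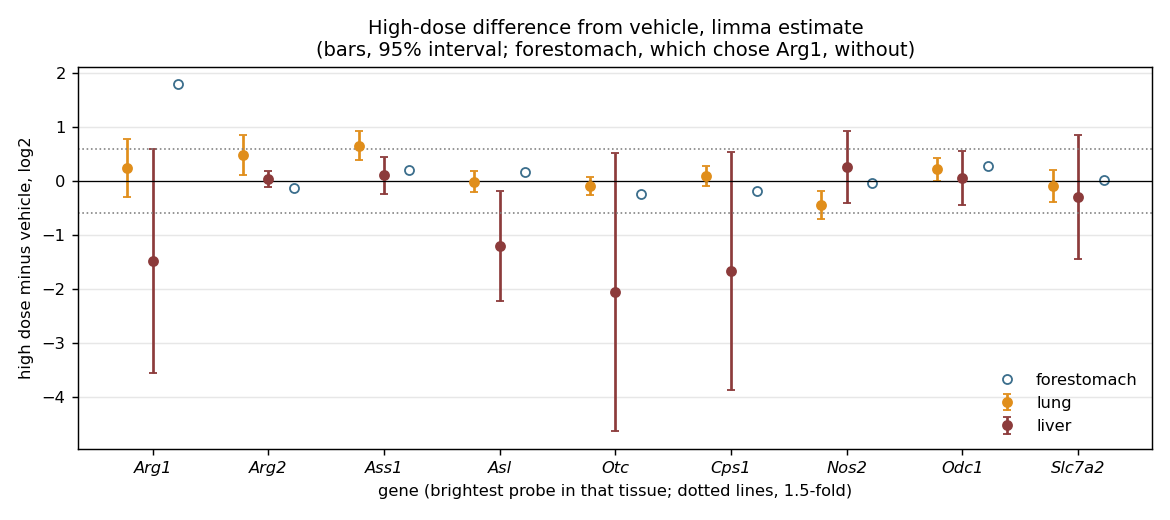
Difference between high-dose and vehicle mice (y axis, log2) for the 9 genes (x axis) in each tissue, limma estimate with 95% interval for lung and liver and the estimate alone for forestomach. The dotted lines mark 1.5-fold, the forestomach point of Arg1 lies at 1.80, Ass1 in lung lies at 0.65, and the liver intervals of Arg1, Otc and Cps1 span several units.

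Among the 31 other genes of the pathway, 2 were called in high-dose lung, both higher, where 1.93% of all genes were called (1.36% higher). Ddah1, which breaks down the methylated arginines that inhibit nitric oxide synthases, ran from -1.23 to -0.72 in vehicle and from 0.31 to 0.94 in high-dose lungs, a rise of 1.49 ± 0.16 (adjusted p = 6.8e-06). It was also called at medium dose (1.54 ± 0.16, adjusted p = 2.3e-05) and low dose (0.75 ± 0.17, adjusted p = 0.039), the latter lost in 8 of 9 fits that left out 1 mouse (adjusted p up to 0.17). Nos3, the endothelial nitric oxide synthase, ran from 1.43 to 1.91 in vehicle and from 2.39 to 3.01 in high-dose lungs, a rise of 1.11 ± 0.14 (adjusted p = 7.8e-05), and was called at no lower dose (0.44 ± 0.15 and 0.27 ± 0.14). For both genes every high-dose lung lay above every vehicle lung, which 4.26% of all genes did. The median change over the 31 genes was -0.02, beside -0.00 for all genes. None of the 31 was called in liver at any dose or in forestomach at low or medium dose. In the study's own BbF forestomach list, from another test, Ddah1 was lower at high dose and Slc7a3 lower at low dose.

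Of the leukocyte lists, that of neutrophils had the largest median change in high-dose lung, 0.74. The neutrophil score ran from 1.85 to 2.45 in vehicle and from 2.44 to 3.69 in high-dose mice, with S100a8 (1.20 ± 0.34, adjusted p = 0.040) and Mmp8 (2.19 ± 0.35, adjusted p = 0.00061) called, 2 of 7 genes. Of 7 macrophage genes Marco alone was called (1.30 ± 0.35, adjusted p = 0.027), and the macrophage score ran from 2.06 to 2.72 and from 2.38 to 2.85. The median change of the macrophage genes was 0.02. No gene was called among 6 of alternatively activated macrophages (median change -0.09) or 7 of mast cells and eosinophils (-0.007). Of all genes, 1.93% were called at this dose. The part of these cells in the Ass1, Ddah1 and Nos3 values was not tested.

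Whether the high dose acted differently on the members in lung and in liver was tested as the difference of the 2 effects. Ass1 was the 1 member called, where 0.439% of all genes were (0.264% higher). On its dimmer probe the effect was 1.08 ± 0.15 larger in lung than in liver (adjusted p = 0.00046), the liver effect being -0.13 ± 0.09. On its brighter probe the difference was 0.55 ± 0.21 and not called (adjusted p = 0.36), but it was 0.78 ± 0.19 without the third liver slide (adjusted p = 0.037), where 1.46% of all genes were called, and 0.69 ± 0.14 with slide as a block (adjusted p = 0.0036), where 1.81% were. For Arg1, Otc and Cps1 the difference had 95% intervals of -0.43 to 3.87, -0.62 to 4.56 and -0.46 to 3.98. Ddah1 was called by the same test (2.07 ± 0.35, adjusted p = 0.0025). Nos3 was called through its dimmer probe, and its brighter probe gave 1.34 ± 0.38 with an adjusted p of 0.14.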

How the data were processed

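Tissue RNA was labelled by the authors with Cy5, hybridized with Cy3-labelled reference RNA to Agilent mouse arrays without dye swap, and extracted with Feature Extraction 10.7.3.1 (array build mm9). The deposited scanner files hold spot intensity and local background in both dyes, not normalized. The authors also deposited processed log2 ratios, used as an alternative.

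Median intensities without background correction, as in the study's methods, were loess-normalized array by array (limma 3.58.1 under R 4.3.3). Repeated spots were averaged, after control and non-uniform spots had been dropped. Of 55681 probes, 26413 were named through RefSeq (GRCm38.p6) and the rest kept the name in the array files. Where 1 value stands for a gene it is that of its brightest probe in the tissue.

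Each dose was compared with vehicle, and a linear trend fitted, within a tissue. Vehicle tissues were compared in 1 fit, and the lung and liver effects in another. Limma's moderated test was used, 2-sided, with Benjamini-Hochberg adjustment over all probes, and checked on simulated data. No test was read from high against vehicle in forestomach. Members and lists were chosen with earlier results of these data known. Named genes are the members, called genes of the pathway list, and the 5 closest to Arg1. A number marks 1 animal in the labels: deviations of same-numbered samples correlated between tissues with a median r of 0.01 to 0.04. Alternatives were other normalizations, a detection filter, slide and mouse as blocks, and leaving out slides or mice. The number of arrays limits the precision.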

Additional observations from a re-analysis of the deposited data

Results flagged for a closer look

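Of 108 groups of member values searched for a mouse far from the rest of its group, 11 held one, and chance alone marks about 1 in 20 groups. Vehicle mouse 5 gave 5 of these. In its liver, on the third slide, Arg1 read 4.80 (other vehicle livers 6.96 to 7.47), Cps1 5.00 (7.43 to 7.59), Otc 4.72 (8.14 to 8.58) and Nos2 -0.050 (-1.16 to -0.89). Nos2 was not well above background on any liver of that slide. In its forestomach, on another slide, Arg1 read 1.71 against 3.23 to 3.79 in the other 4.

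The lung of low-dose mouse 6 read 2.14 for Arg1 against 0.07 to 0.23. The forestomach of medium-dose mouse 12 read 2.59 for Otc (others -0.23 to 0.53) and 2.06 for Cps1 (others -0.08 to 0.25). The marker scores of both samples stand beside these values in the report. The other 3 were Asl at -0.35 in the forestomach of high-dose mouse 20 (others -0.75 to -0.67), Ass1 at -0.83 in the forestomach of vehicle mouse 3 (others -0.10 to 0.19) and Nos2 at -0.92 in the lung of medium-dose mouse 11 (others -0.73 to -0.65).

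The effect of the high dose on Ass1 was called different between lung and liver on 1 of its 2 probes. On the dimmer probe it was 1.08 larger in lung than in liver by the limma test of that difference. On the brighter probe the same test gave 0.55 (adjusted p = 0.36), and with median centring no member was called for it.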

How the results depend on the processing

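Counts of called members moved under 2 choices. With median centring in place of loess, the count in lung was 1 at medium dose (Ass1), 2 at high dose and 2 for the trend (Ass1 and Odc1), 1 between vehicle lung and forestomach (Arg2), and 0 for the lung against liver effect. With slide as a block it was 1 in high-dose liver and 1 for the liver trend (Asl), and 2 for the lung against liver effect (Asl and Ass1). Leaving out 1 mouse at a time, the medium-dose lung count ran from 0 to 1 (Ass1, without medium mouse 13 or vehicle mouse 4), and no other count moved by over 1.5 times. The direction of Ass1 in high-dose liver turned from 0.11 to -0.13 on its other probe, -2.25 with median centring, -0.20 with the authors' values, -0.095 with slide as a block and -0.13 without the third slide. Arg1 in liver turned to 0.035 at low dose with slide as a block, and without the third slide to 0.047, 0.027 and 0.064 at low, medium and high dose and 0.056 for the trend. Odc1 between vehicle liver and forestomach was 0.021 on 1 other probe. Arg1 at low dose ran from -0.13 (without mouse 6) to 0.56 in lung and from -0.078 (without vehicle mouse 5) to 0.54 in forestomach over such omissions. The causes were not tested. With mouse as a replicate block, which pairs tissues of 1 animal, the counts were 7, 7, 3 and 1 for liver against lung, liver against forestomach, lung against forestomach and the lung against liver effect, so the block changed no count. On the third liver slide few probes were well above background, which limits every liver result.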
